A study of Mus musculus with 12 samples.

Results

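The genes described here encode the subunits of the mitochondrial respiratory chain and of ATP synthase, in heart macrophages sorted after myocardial infarction. They were chosen by symbol: Nduf a, b, c, s and v genes (without the Ndufaf assembly factors), Sdha to Sdhd, and the Uqcr, Atp5, Cox4i, Cox5, Cox6, Cox7 and Cox8 genes of the nucleus, with the mt-Nd, mt-Co, mt-Atp and mt-Cyt genes of the mitochondrial DNA. Of 53801 rows in the count table, 105 had such a symbol. Dropping 8 pseudogene names and 7 genes with under 100 counts over the 12 libraries left 90 members, of which 82 are nuclear and 8 are mitochondrially encoded. The 7 genes dropped for low counts were Cox8c and Cox7b2, both at 0 counts, and mt-Co2, mt-Atp8, mt-Atp6, mt-Nd3 and mt-Nd4l. All 90 members passed the filter on low counts before testing.

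RNA was extracted with TRIzol from macrophages of C57BL/6N mouse hearts after ligation of the left anterior descending coronary artery. Mice were wild type (WT) or carried 1 allele of Bhlhe41dTomato-Cre+/- (Bhlhe41Cre below), and from each genotype CCR2low and CCR2hi cells were sequenced, with 3 libraries in each of 4 groups. All 12 libraries are labelled MI (myocardial infarction), and no library comes from an uninjured heart. The sources used here do not give the time after ligation, the animals behind a library or whether the genotypes were prepared together, so p-values measure only the spread between these libraries, which may be technical, and genotype and preparation cannot be told apart.

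Electrons from NADH enter the chain at complex I and those from succinate at complex II, and pass through coenzyme Q, complex III and cytochrome c to oxygen at complex IV. The proton gradient built on the way drives ATP synthase, also called complex V. Complex II is encoded wholly in the nucleus, whereas the other complexes combine nuclear subunits with core subunits from mitochondrial DNA, which is transcribed by its own polymerase from both strands as long precursors. Macrophages shift between respiration and glycolysis with their activation state, and heart muscle carries tissue isoforms of several complex IV subunits.

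Library totals ran from 17.7 to 20.83 M counts. The summed macrophage identity genes, all 17 of which were detected in every library, took 3.47 to 3.76% of counts in WT CCR2low, 3.05 to 3.41% in Bhlhe41Cre CCR2low, 0.848 to 1.11% in Bhlhe41Cre CCR2hi and 0.250 to 0.582% in WT CCR2hi. Fibroblast markers, 16 genes with none at 0 in any library, took 0.693 to 1.11%, 0.336 to 0.714%, 5.04 to 6.36% and 9.34 to 10.4% in the same order. The CCR2hi libraries thus held less macrophage and more fibroblast marker RNA than the CCR2low libraries in both genotypes, most of all in WT. In bulk RNA, fewer cells of a type and less RNA per cell cannot be told apart. The inactive X transcript Xist had 0 to 3 counts in each WT library and 1403 to 3699 in each Bhlhe41Cre library. Yet the labels give male mice. Xist thus separated the genotypes wholly. What lies behind it cannot be told apart from genotype in the genotype comparisons or the interaction. Of the members, 3 (Ndufa1, Ndufb11 and Cox7b) are X-linked.

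Only some of the mitochondrial genes had counts to compare, and those with few counts are, but for mt-Atp8, the ones that an annotated near-identical nuclear copy covers almost wholly. On GRCm38 (mm10) a stretch of chromosome 1, minus strand, at chr1:24611535-24616197 holds annotated copies of 7 of the 13 mitochondrial mRNA genes. The copies of mt-Co2, mt-Atp6, mt-Co3 and mt-Nd4l have 0 mismatches over 681, 678, 783 and 294 bases, so a read from these genes matches 2 places equally well. The start of mt-Co3, the cytochrome c oxidase subunit 3 gene (chrM:8607-9390), and of its copy Gm28437 are shown because they are identical, with the first 90 coding bases given 5′ to 3′.
mt-Co3: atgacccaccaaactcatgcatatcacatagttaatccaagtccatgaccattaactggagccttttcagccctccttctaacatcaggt
Gm28437: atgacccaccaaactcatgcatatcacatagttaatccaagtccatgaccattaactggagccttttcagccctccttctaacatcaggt
The copy of mt-Nd3, a complex I subunit gene (chrM:9459-9806), differs at 1 of 345 bases, T3C (mt-Nd3 base first, counted from the coding start, in capitals here).
mt-Nd3: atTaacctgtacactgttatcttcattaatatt
Gm28438: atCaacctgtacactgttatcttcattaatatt
For mt-Co1, the catalytic subunit of complex IV (chrM:5328-6872), the copy Gm29216 covers only the last 492 of 1545 bases, with 6 mismatches close to its start and 479 identical bases after them. The 120 bases from mt-Co1 base 1054 are shown with the mismatches T1056A, C1057T, A1059G, A1060G, C1062A and A1066T in capitals.
mt-Co1: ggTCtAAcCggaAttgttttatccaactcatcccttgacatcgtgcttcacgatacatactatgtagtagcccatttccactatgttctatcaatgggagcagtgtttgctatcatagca
Gm29216: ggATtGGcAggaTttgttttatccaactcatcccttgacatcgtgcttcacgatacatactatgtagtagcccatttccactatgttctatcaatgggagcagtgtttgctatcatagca
Low counts fell on the genes that these copies cover. Over all 12 libraries mt-Co2 had 96 counts, mt-Atp6 55, mt-Nd3 87, mt-Nd4l 7 and mt-Co3 204, and their copies had 196, 167, 48, 23 and 369. By contrast mt-Co1 had 4632008, mt-Cytb 1128890, mt-Nd1 1041475, mt-Nd2 505711, mt-Nd5 449441, mt-Nd4 388646 and mt-Nd6 131547. The first 876 bases of mt-Nd4 also have an identical copy, which leaves 502 that do not. mt-Atp8 (15 counts) has no annotated copy of its own, but it overlaps mt-Atp6 and lies between mt-Co2 and mt-Atp6. The copies of those 2 genes are neighbours on chromosome 1, and the bases between them were not compared with mt-Atp8. How reads that match both places were counted is not stated, and its part in these counts was not tested; counts of mt-Co1 and mt-Nd4 may rest on part of the gene, mt-Co3 is reported as uncertain, and no value below says how mt-Co2, mt-Atp6, mt-Atp8, mt-Nd3 or mt-Nd4l behaved.

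**Figure D1:**
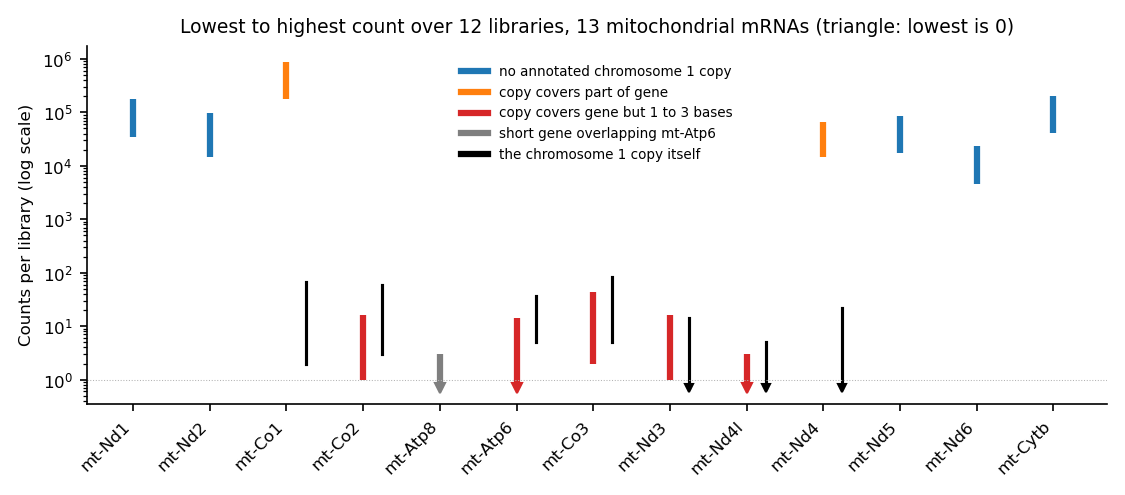
Range of counts per library (log axis, 12 libraries) for the 13 mitochondrial mRNA genes in genome order, coloured by how much of the gene has a chromosome 1 copy, with the copy's own range in black. Genes covered almost wholly by an annotated copy have at most 43 counts in a library and mt-Atp8, which overlaps mt-Atp6, at most 3, whereas the other 7 have at least 4532.

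Mitochondrially encoded RNA was most abundant in WT CCR2hi and least abundant in Bhlhe41Cre CCR2low. The 8 genes took 3.52, 3.06 and 2.07% of counts in the 3 WT CCR2low libraries and 5.52, 7.28 and 7.79% in WT CCR2hi. In Bhlhe41Cre they took 1.58, 1.64 and 1.93% in CCR2low and 2.16, 3.04 and 3.24% in CCR2hi. Every WT CCR2hi library was above every library of the other groups, and the 3 Bhlhe41Cre CCR2low libraries were below all others. The 82 nuclear genes ran the other way in WT, with 0.862, 0.809 and 0.767% of counts in CCR2low against 0.609, 0.605 and 0.601% in CCR2hi. In Bhlhe41Cre they took 0.783, 0.788 and 0.960% in CCR2low and 0.781, 0.893 and 0.910% in CCR2hi, which overlap.

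The ratio of mitochondrial to nuclear counts needs no scaling between libraries. It was 4.09, 3.78 and 2.70 in WT CCR2low against 9.06, 12.04 and 12.96 in WT CCR2hi, so the WT gates did not overlap. In Bhlhe41Cre it was 2.02, 2.075 and 2.01 in CCR2low and 2.765, 3.404 and 3.56 in CCR2hi. The Bhlhe41Cre gates did not overlap either, and all Bhlhe41Cre CCR2hi libraries were below all WT CCR2hi libraries. Without mt-Co1, which alone made up 49.5 to 65.0% of the mitochondrial counts, the ratio ran from 1.17 to 1.99 and from 4.01 to 5.70 in the CCR2low and CCR2hi cells of WT, and from 0.844 to 0.978 and from 1.26 to 1.77 in those of Bhlhe41Cre. The order of the groups was then the same, but with the WT CCR2low and Bhlhe41Cre CCR2hi ranges overlapping as they do with mt-Co1. The group with the highest ratio, WT CCR2hi, was also the one with the most fibroblast and the least macrophage marker RNA, and the part of these cells in the ratio was not tested.

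**Figure D2:**
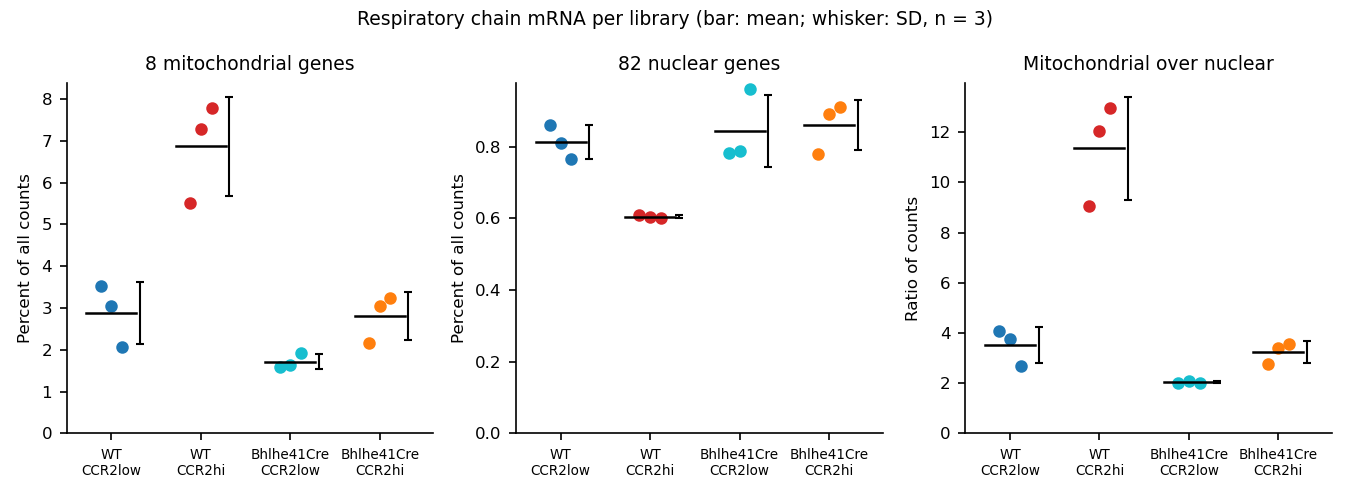
Percent of each library's counts from the 8 mitochondrially encoded genes (left) and the 82 nuclear genes (middle), and the ratio of the first to the second (right); points are libraries, bars group means and whiskers SD (n = 3). The WT CCR2hi libraries stand apart in each panel, with ratios of 9.06 to 12.96 against 2.01 to 4.09 elsewhere.

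Levels per length differed widely between members. On the authors' transcripts-per-million (TPM) scale, which divides by transcript length, mt-Co1 was the highest member in each group, at 15124 ± 2833 TPM against 49069 ± 9900 in the CCR2low and CCR2hi cells of WT and 9650 ± 288.1 against 15281 ± 2326 in those of Bhlhe41Cre (mean ± SD, n = 3). These levels of mt-Co1 divide by the length of the whole gene, and how many counts came from its last 492 bases was not measured here. Next came mt-Nd1 and mt-Cytb, the latter the sole mitochondrially encoded subunit of complex III, at 7250 ± 2375 and 5515 ± 1560 TPM in WT CCR2low. Among nuclear members Cox4i1, the common form of a complex IV subunit, was at 1003 ± 18.6 TPM in WT CCR2low against 740.8 ± 25.6 in WT CCR2hi. Atp5b, the catalytic beta subunit of ATP synthase, was at 711 ± 31.4 and 723 ± 101 TPM in those 2 groups, so its TPM did not differ beyond the spread. The lowest TPM values among nuclear members belonged to tissue isoforms and to Atp5s, a coupling factor, which was at 4.75 TPM in WT CCR2low. Of the mitochondrial members, mt-Co3, whose counts are uncertain as said above, was at 1.957 ± 0.487 TPM in that group.

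In WT, nuclear subunits of each complex were higher in CCR2low than in CCR2hi cells, and the mitochondrially encoded ones were lower. Of the 82 nuclear members, 53 were called higher and 3 lower in CCR2low (edgeR, adjusted p under 0.05), where 29.8% of all 14964 genes tested were called higher and 30.0% lower. The nuclear median was a log2 fold change of 0.49 against 0.01 for all genes. Of the 8 mitochondrial members, 6 were called lower, and the other 2 (mt-Co3 and mt-Nd6) were also below 0, with a median of -0.85. The nuclear count moved with single libraries: it was 35 without WT CCR2low replicate 1, 24 without WT CCR2hi replicate 1 and 28 without any 1 of the 3 Bhlhe41Cre CCR2hi libraries, and the mitochondrial count was 3 without replicate 3 of either WT group. All genes called higher, 4454 as reported, numbered 3995 and 3216 without replicate 1 of WT CCR2low and of WT CCR2hi. They numbered 3288, 3284 and 3314 without Bhlhe41Cre CCR2hi replicates 1, 2 and 3. The median of all genes was 0.00, -0.18 and, for the last 3, -0.20. The nuclear median lay 0.39, 0.46 and 0.48 above it, against 0.48 as reported. The nuclear count also moved with transcript length, since the nuclear members' median effective length was 0.224 of that of all genes: with the trend of fold change on length removed, 20 were called higher and 4 lower, and the nuclear median was 0.11 against 0.06. In that setting 4943 of all 14964 genes were called higher and 4184 lower.

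**Figure D3:**
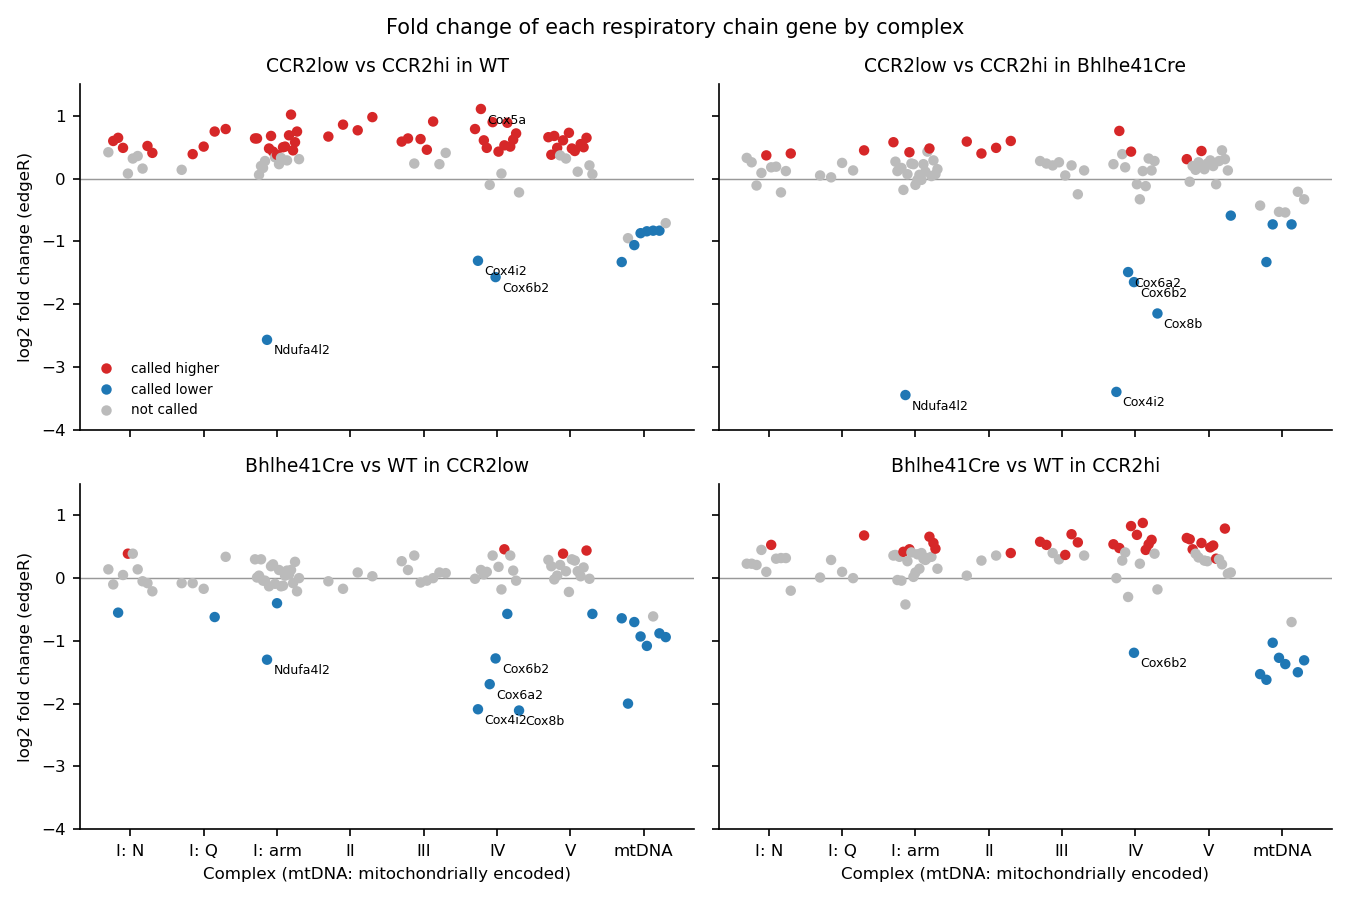
Log2 fold change (edgeR) of each of the 90 members by complex (I: N, Q and arm are the NADH module, the coenzyme Q module, and the membrane arm with other subunits) in the 4 comparisons of 2 groups; red and blue points were called higher and lower. Nuclear members sit mostly above 0 and mitochondrial members below 0 on the standard scale; scaling to macrophage identity genes puts all nuclear members below 0 in both gate comparisons, and Ndufa4l2 and the Cox isoforms make up the low tail.

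Among the mitochondrial genes mt-Co1 had the largest fold change between the WT gates. It was at 19758, 15842 and 11790 CPM (on a counts-per-million scale) in WT CCR2low against 30046, 46338 and 42734 in WT CCR2hi. The gates did not overlap, and the log2 fold change was -1.33 ± 0.23 (SE; edgeR adjusted p = 0.000226). Cytochrome b, mt-Cytb, was at 5002, 4713 and 2541 CPM against 7358, 7721 and 10486, again with no overlap (-1.06 ± 0.263, edgeR adjusted p = 0.00343). The complex I subunits mt-Nd1, mt-Nd2, mt-Nd4 and mt-Nd5 fell by 0.87, 0.84, 0.83 and 0.83 on the log2 scale. Without WT CCR2low replicate 3 or WT CCR2hi replicate 3 the calls of mt-Nd1 (edgeR adjusted p = 0.0664 and 0.0634), mt-Nd2 (0.145 and 0.152) and mt-Nd4 (0.095 and 0.111) ended, as did that of mt-Nd2 without WT CCR2low replicate 2 (0.0702). The one light-strand gene, mt-Nd6, was at -0.71 ± 0.296 (edgeR adjusted p = 0.0536), which passed the threshold without any 1 of 6 libraries (0.0102 to 0.0339): WT CCR2low replicate 1, WT CCR2hi replicate 1, Bhlhe41Cre CCR2low replicate 3 and the 3 Bhlhe41Cre CCR2hi libraries. The sources used here do not say whether counting used strand, so reads of mt-Nd6 and of RNA opposite to it cannot be told apart.

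Higher calls in CCR2low of WT were found in each part of complex I. Of all genes, 29.8% were called higher there and 30.0% lower. In the NADH-oxidising N module 5 of 10 members were called higher, in the coenzyme Q module 4 of 5, and among membrane arm and other subunits, grouped by symbol, 13 of 23, with 1 lower. Without Ndufa4, now known as a complex IV subunit despite its name, and its paralog Ndufa4l2, these were 13 of 21 and 0 lower. By limma on TPM the higher calls were 1 of 10 (with 1 lower), 2 of 5 and 4 of 23 (with 1 lower). That fit, on log2(TPM + 1), called 2614 of 15613 genes higher and 5691 lower. Ndufb8, an accessory subunit of the membrane arm, was at 124, 107 and 97.8 CPM in CCR2low against 55.4, 54.6 and 52.5 in CCR2hi, a difference of 1.02 ± 0.159 (edgeR adjusted p = 9.96e-05). Ndufs8, which carries iron-sulfur clusters towards the coenzyme Q site, rose by 0.79 ± 0.164 (edgeR adjusted p = 0.000995). The NADH-binding core subunit Ndufv1 was not called, with CPM of 80.6, 69.9 and 66.3 against 66.2, 67.8 and 60.3 and overlapping groups. The 1 lower edgeR call was Ndufa4l2, described with the isoforms below.

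All 4 subunits of complex II, which is also the succinate dehydrogenase of the tricarboxylic acid cycle, were called higher in CCR2low of both genotypes by edgeR, DESeq2 and limma-voom, but limma on TPM called 2 of them between the WT gates and 1 between the Bhlhe41Cre gates. Of all genes, edgeR called 29.8% higher between the WT gates and 24.9% between the Bhlhe41Cre gates. Limma on TPM called 2614 and 2157 of 15613 genes higher. Sdhd, a membrane anchor, was at 115, 105 and 102 CPM in WT CCR2low against 48.2, 56.0 and 59.5 in WT CCR2hi (0.98 ± 0.133, edgeR adjusted p = 2.86e-05). The other anchor, Sdhc, differed by 0.77 ± 0.163, the iron-sulfur subunit Sdhb by 0.86 ± 0.149 and the flavoprotein Sdha by 0.67 ± 0.0995. Sdha was the steadiest between libraries, at 205, 209 and 211 CPM in WT CCR2low against 131, 133 and 128 in WT CCR2hi. In Bhlhe41Cre it was at 200, 192 and 214 against 129, 136 and 138 CPM, and the log2 fold change was 0.59 ± 0.0994 (edgeR adjusted p = 0.00021). There Sdhd was at 0.60 ± 0.132, Sdhc at 0.49 ± 0.163 and Sdhb at 0.40 ± 0.148. The Bhlhe41Cre calls of Sdhb and Sdhc ended without Bhlhe41Cre CCR2low replicate 3 (edgeR adjusted p = 0.0793 and 0.0504) or Bhlhe41Cre CCR2hi replicate 1 (0.117 and 0.0715), and that of Sdhc without Bhlhe41Cre CCR2hi replicate 2 (0.0535). Between genotypes in CCR2low 0 of the 4 were called by edgeR, DESeq2 or limma-voom, with 0 at an unadjusted p under 0.05, and their values ran from -0.17 to 0.09, a range that does not show that they were equal. There edgeR called 16.4% of all genes higher and 26.7% lower.

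Of complex III, 5 of 8 members were called higher in CCR2low of WT by edgeR, beside 29.8% of all genes. Limma on TPM called 2, beside 2614 of 15613 genes. Uqcrfs1, the Rieske iron-sulfur protein, was at 102, 94.2 and 95.7 CPM in WT CCR2low against 50.4, 46.4 and 58.2 in WT CCR2hi, which do not overlap (0.91 ± 0.119, edgeR adjusted p = 1.98e-05). Uqcrc1, a core protein, rose by 0.63 ± 0.168 (edgeR adjusted p = 0.00519). The small subunit Uqcr11 rose by 0.64 ± 0.168, a call that ended without WT CCR2hi replicate 1 (edgeR adjusted p = 0.0887).

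Complex IV divided into common subunits, which were higher in CCR2low of WT, and low isoforms, which were not. Of its 16 members edgeR called 11 higher and 2 lower, beside 29.8% and 30.0% of all genes. Limma on TPM called 7 higher and 2 lower, beside 2614 and 5691 of 15613 genes. Cox5a, a nuclear subunit on the matrix side, was at 119, 107 and 94.7 CPM in WT CCR2low against 47.5, 48.1 and 52.4 in WT CCR2hi, the highest fold change of any member (1.11 ± 0.141, edgeR adjusted p = 1.52e-05). Cox6b1, which faces the intermembrane space, was at 167, 142 and 125 against 76.6, 78.5 and 76.7 CPM (0.90 ± 0.161, edgeR adjusted p = 0.000295). Cox4i1 rose by 0.79 ± 0.149 and Cox7a2l, known as a factor that joins complexes III and IV into supercomplexes, by 0.89 ± 0.135. Cox6a1 and Cox7a2 rose by 0.49 and 0.53, and both calls ended without WT CCR2low replicate 1 (edgeR adjusted p = 0.071 and 0.0603), WT CCR2hi replicate 1 (0.173 and 0.145) or Bhlhe41Cre CCR2hi replicate 1 (0.133 and 0.101), 2 (0.148 and 0.104) or 3 (0.138 and 0.108). Of the 16 ATP synthase members, 11 were called higher and 0 lower by edgeR, and 4 higher and 1 lower by limma on TPM, beside the same numbers over all genes as for complex IV. Those called higher by edgeR included the alpha subunit Atp5a1 (0.66 ± 0.121) and the rotor's gamma subunit Atp5c1 (0.68 ± 0.125). Another was Atp5g2, one of the genes for the membrane ring (0.73 ± 0.166).

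In Bhlhe41Cre the same contrast of gates gave fewer nuclear calls. Of 82 nuclear members 14 were called higher and 6 lower in CCR2low, where 24.9% of all genes were called higher and 29.1% lower, so the nuclear share was below the background in both directions. The median was 0.19, against -0.01 for all genes. Of the 8 mitochondrial members 3 were called lower (mt-Co3, mt-Nd4 and mt-Cytb) and the median was -0.53. Here all 4 complex II subunits were called higher, 0 of 8 of complex III (0 at an unadjusted p under 0.05 in edgeR, 1 by DESeq2 and 0 by limma-voom), 2 of 16 of complex IV (Cox5a and Cox6b1), 2 of 16 of complex V (Atp5a1 and Atp5f1) and, of complex I, 2 of 10 in the N module, 1 of 5 in the Q module and 3 of 23 in the rest (3 of 21 without Ndufa4 and Ndufa4l2). Cox5a was at 108, 102 and 140 CPM in CCR2low against 62.4, 71.2 and 73.1 in CCR2hi, with no overlap (0.76 ± 0.14, edgeR adjusted p = 0.000426). mt-Cytb was at 2173, 2240 and 3113 CPM against 3164, 4609 and 4752, and mt-Co1 at 9547, 9739 and 11184 against 10838, 15444 and 14824, which overlap.

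Single libraries moved these counts. The higher nuclear calls numbered 8 without Bhlhe41Cre CCR2low replicate 3 and 5 without Bhlhe41Cre CCR2hi replicate 1. Over all genes 3855 and 3188 were then called higher, against 3733 as reported. The lower mitochondrial calls numbered 0 without Bhlhe41Cre CCR2low replicate 1 or 2 or Bhlhe41Cre CCR2hi replicate 2 or 3, 1 without WT CCR2low or WT CCR2hi replicate 2, and 5 without Bhlhe41Cre CCR2low replicate 3. With the replicate number as a block, which pairs the gates here, the lower mitochondrial calls numbered 1, or 2 with the block kept within genotype. The block ended the calls of mt-Co3 (edgeR adjusted p = 0.0678), mt-Nd4 (0.0517), Cox6b1 (0.0539) and Atp5a1 (0.0718), and within genotype only that of mt-Co3 (0.0895), among the genes named by rule. With the length trend removed 53 nuclear members were called higher, at a median of 0.38 against 0.28 for all genes. In that setting 6142 of 14964 genes were called higher, against 3733 as reported. In this comparison the cytosolic ribosome genes, which are about as short as the nuclear members (0.204 of the median length), were called lower in 31 of 88 and higher in 1 as reported, beside 29.1% and 24.9% of all genes.

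Within CCR2low, the genotypes differed in mitochondrial more than in nuclear members. In Bhlhe41Cre 7 of 8 mitochondrial members were called lower than in WT, against 26.7% of all genes, and the median was -0.91 where all genes had -0.18. mt-Nd1 was at 1892, 1924 and 3025 CPM in Bhlhe41Cre and 5844, 4662 and 2549 in WT, so the third WT library lay within the Bhlhe41Cre range (-0.93 ± 0.286, edgeR adjusted p = 0.0185). mt-Co1 was at 9547, 9739 and 11184 CPM against 19758, 15842 and 11790, which do not overlap (-0.64 ± 0.227, edgeR adjusted p = 0.0367), and its call ended without any 1 library other than WT CCR2low replicate 3 and WT CCR2hi replicates 2 and 3, with edgeR adjusted p from 0.0658 to 0.164. The count of 7 depended on single libraries: it was 1 without replicate 1 of either CCR2low group, 2 without replicate 2 of either CCR2low group or of Bhlhe41Cre CCR2hi, and 4 without WT CCR2hi replicate 1 or Bhlhe41Cre CCR2hi replicate 3. All genes called lower, 3993 as reported, ran from 2501 to 3449 without any 1 of these libraries. The third WT CCR2low library, lowest in its group for mitochondrial RNA, was also the one with adipocyte marker RNA, at 0.105% of counts against 0.00430 and 0.00865% in its group; the part of this in the result was not tested.

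Few nuclear members were called in this comparison. Of 82, 4 were called higher and 10 lower in Bhlhe41Cre CCR2low, below the 16.4% and 26.7% of all genes, and the median was 0.04. The higher ones were Atp5f1 and Atp5l of ATP synthase, Cox7a2 and Ndufs1, with log2 fold changes of 0.39 to 0.46. Among the lower ones, Cox7a2l was at 175, 154 and 171 CPM in Bhlhe41Cre and 262, 238 and 242 in WT (-0.57 ± 0.134, edgeR adjusted p = 0.00437). Ndufa6, an accessory subunit of complex I, was at 50.2, 45.5 and 66.7 against 83.9, 76.7 and 77.7 CPM (-0.55 ± 0.149, edgeR adjusted p = 0.0092). Ndufs7, of the coenzyme Q module of complex I, fell further, with overlapping groups (-0.62 ± 0.209, edgeR adjusted p = 0.0294). The call of Ndufs7 ended in 8 of the fits with 1 library left out (edgeR adjusted p = 0.053 to 0.139). Of the 10 lower ones, 5 were the low isoforms Cox4i2, Cox8b, Cox6a2, Cox6b2 and Ndufa4l2. Without 1 library the higher count ran from 0 to 20: 0 and 1 without WT CCR2low replicates 2 and 3, 8 without Bhlhe41Cre CCR2low replicate 3, 20 without WT CCR2hi replicate 1 and 19, 18 and 18 without Bhlhe41Cre CCR2hi replicates 1, 2 and 3. All genes called higher, 2448 as reported, were 1920, 2350, 3258, 3620, 3283, 3235 and 3320 in the same order. Without WT CCR2hi replicate 1 or any 1 Bhlhe41Cre CCR2hi library the median of all genes was 0.01, against -0.18. The nuclear median then lay 0.22 to 0.23 above it, against 0.22 as reported. The lower nuclear count was 5 without any 1 Bhlhe41Cre CCR2hi library, and 6 without replicate 1 or 2 of either CCR2low group or replicate 1 of WT CCR2hi. Lower calls over all genes, 3993 as reported, were 2502, 2501 and 2552 without Bhlhe41Cre CCR2hi replicates 1, 2 and 3. They were 2904 without WT CCR2hi replicate 1. With replicate number as a block 1 member was called higher.

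Within CCR2hi, the genotypes differed in both parts and in opposite directions. In Bhlhe41Cre 7 of 8 mitochondrial members were called lower (15.9% of all genes), with a median of -1.34, and 7 or 8 were called whichever library was left out. mt-Co1 was at 10838, 15444 and 14824 CPM in Bhlhe41Cre and 30046, 46338 and 42734 in WT, with no overlap (-1.53 ± 0.231, edgeR adjusted p = 0.000332). mt-Nd1 was at 2494, 3421 and 3932 against 6900, 7713 and 9180 CPM (-1.27 ± 0.288, edgeR adjusted p = 0.0048). mt-Nd5 fell by 1.5, mt-Nd2 by 1.37, mt-Nd6 by 1.31 and mt-Cytb by 1.03 on the log2 scale. mt-Nd4, at -0.70 ± 0.288, was not called (edgeR adjusted p = 0.0783), though it passed without WT CCR2low replicate 3 (0.0431) or Bhlhe41Cre CCR2low replicate 3 (0.0422).

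Of the nuclear members 29 of 82 were called higher in Bhlhe41Cre CCR2hi and 1 lower, where 16.2% of all genes were called higher, and the median was 0.34 against -0.03. Complexes III, IV and V gave 5 of 8, 8 of 16 and 8 of 16 higher calls, complex II 1 of 4, and the N module, the Q module and the rest of complex I 1 of 10, 1 of 5 and 5 of 23 (4 of 21 without Ndufa4 and Ndufa4l2). Cox7a2, the common form of a small complex IV subunit, was at 87.5, 106 and 99.9 CPM in Bhlhe41Cre and 53.1, 50.5 and 56.2 in WT (0.88 ± 0.165, edgeR adjusted p = 0.00151). Cox6b1 was at 120, 148 and 145 against 76.6, 78.5 and 76.7 CPM (0.83 ± 0.161, edgeR adjusted p = 0.00179). Atp5l, subunit g of ATP synthase, rose by 0.79 ± 0.15, and Uqcrfs1, at 79.3, 81.0 and 91.9 against 50.4, 46.4 and 58.2 CPM, by 0.70 ± 0.119. Groups did not overlap for these genes. The count of 29 was 17 and 18 without WT CCR2hi replicates 2 and 3, 15 and 14 without Bhlhe41Cre CCR2hi replicates 2 and 3, and 44 without Bhlhe41Cre CCR2low replicate 3. Over all genes 1710, 1953, 1678, 1892 and 2614 were then called higher, against 2424 as reported. The 1 lower call was Cox6b2; the lower count was 0 without WT CCR2hi replicate 3 or Bhlhe41Cre CCR2hi replicate 2 or 3, and 2 without Bhlhe41Cre CCR2low replicate 1.

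Another set of short transcripts also rose in this comparison. Of 88 cytosolic ribosome genes 77 were called higher and 0 lower in Bhlhe41Cre CCR2hi, with a median of 0.67, beside 16.2% and 15.9% of all genes called higher and lower. With the length trend removed 6 nuclear members were called higher and 7 lower and their median became -0.07, against -0.05 for all genes, so the direction of the nuclear members was lost there, whereas the mitochondrial median was -1.62. Of all 14964 genes, 2246 were then called higher and 2430 lower. Fibroblast markers were lower in Bhlhe41Cre CCR2hi (9 of 16), neutrophil markers higher (10 of 12) and macrophage identity genes higher (9 of 17, with 1 lower), and their part in the result was not tested.

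The difference between gates itself differed between genotypes for 5 nuclear members and 0 mitochondrial ones (edgeR interaction term, CCR2low minus CCR2hi in Bhlhe41Cre minus the same in WT), where 7.85% of all genes were called lower and 4.74% higher. Of the mitochondrial members, 1 passed an unadjusted p of 0.05 (mt-Co1, higher), and DESeq2, limma on TPM and limma-voom called 1, 1 and 0; without WT CCR2hi replicate 1, Bhlhe41Cre CCR2low replicate 3 or Bhlhe41Cre CCR2hi replicate 2, edgeR also called 1. All 5 nuclear calls were lower: Cox4i2 (-2.09 ± 0.364, edgeR adjusted p = 0.00426), Cox8b (-1.93 ± 0.552, 0.0376), Cox7a2l (-1.02 ± 0.19, 0.00601), Ndufa6 (-0.76 ± 0.21, 0.033) and Uqcrfs1 (-0.70 ± 0.167, 0.0186). For Cox7a2l the gates were 262, 238 and 242 against 107, 141 and 152 CPM in WT and 175, 154 and 171 against 185, 171 and 188 CPM in Bhlhe41Cre, so WT was high in CCR2low and the Bhlhe41Cre gates overlapped. The median of the nuclear members was -0.34 and that of all genes -0.18. Left-out libraries gave 2 to 10 calls: 2 without WT CCR2hi replicate 1 or any 1 Bhlhe41Cre CCR2hi library, 3 without WT CCR2low replicate 1 or 2 or Bhlhe41Cre CCR2low replicate 1, and 10 without Bhlhe41Cre CCR2low replicate 3. Lower calls over all genes, 1174 as reported, were 640 without WT CCR2hi replicate 1. They were 515, 533 and 409 without Bhlhe41Cre CCR2hi replicates 1, 2 and 3. Without WT CCR2low replicate 1 or 2 or Bhlhe41Cre CCR2low replicate 1 or 3 they were 792, 675, 594 and 1063. Cox4i2 and Cox7a2l stayed called with any 1 library left out. With the replicate number as a block, which pairs the Bhlhe41Cre gates, the interaction of Cox8b was not called (edgeR adjusted p = 0.0528, and 0.071 with the block kept within genotype). The call of Uqcrfs1 ended without WT CCR2hi replicate 1 (edgeR adjusted p = 0.0958) or Bhlhe41Cre CCR2hi replicate 1 (0.0868), 2 (0.0927) or 3 (0.158). Without any 1 library other than WT CCR2low replicate 3 and WT CCR2hi replicates 2 and 3 the call of Cox8b ended (0.0556 to 0.141), and so did that of Ndufa6 (0.0668 to 0.191), which however held without Bhlhe41Cre CCR2low replicate 3.

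Of the 6 isoforms with a restricted tissue pattern, 3 (Ndufa4l2, Cox4i2 and Cox6b2) were called lower between the gates of both genotypes, 2 (Cox8b and Cox6a2) only between the Bhlhe41Cre gates and Cox7a1 between neither, without a test of these differences between isoforms. Ndufa4l2, a paralog of the complex IV subunit Ndufa4 that is known to be induced in low oxygen, was at 12.03, 9.96 and 9.945 CPM in WT CCR2low against 55.4, 67.9 and 66.7 in WT CCR2hi (-2.57 ± 0.225, edgeR adjusted p = 5.67e-07). In Bhlhe41Cre it was at 2.36, 5.56 and 5.06 CPM in CCR2low against 47.1, 45.9 and 49.1 in CCR2hi (-3.45 ± 0.241, edgeR adjusted p = 1.84e-07). No gates overlapped, and within CCR2low it was also lower in Bhlhe41Cre than in WT (-1.30 ± 0.236, edgeR adjusted p = 0.000876). Per length, Ndufa4l2 stood at 8.19, 6.57 and 8.003% of the TPM of Ndufa4 in WT CCR2low and at 50.7, 63.5 and 60.4% in WT CCR2hi. In Bhlhe41Cre these shares were 2.365, 4.17 and 3.28% in CCR2low and 34.5, 26.4 and 34.98% in CCR2hi, below each WT CCR2hi library.

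Cox4i2 is the counterpart of Cox4i1 known from lung and from low oxygen. In WT it was at 4.31, 3.37 and 4.54 CPM in CCR2low against 9.76, 9.93 and 10.7 in CCR2hi. In Bhlhe41Cre it was at 0.536, 0.818 and 1.53 CPM in CCR2low against 10.4, 10.3 and 9.69 in CCR2hi. The CCR2hi groups overlapped, while Bhlhe41Cre CCR2low was below each other group. The gates differed by -1.31 ± 0.238 in WT (edgeR adjusted p = 0.000337) and by -3.40 ± 0.278 in Bhlhe41Cre (4.77e-07), and the genotypes within CCR2low by -2.09 ± 0.284 (0.000152). Cox6b2, known as the testis form beside Cox6b1, was called lower in all 4 comparisons, with -1.57 ± 0.36 between WT gates at 2.13, 1.81 and 0.663 against 5.23, 3.36 and 5.04 CPM. In Bhlhe41Cre it was at 0.696, 0.600 and 0.588 CPM in CCR2low against 2.54, 1.91 and 1.495 in CCR2hi. Its call between genotypes in CCR2low (-1.28 ± 0.42, edgeR adjusted p = 0.0258) ended without any 1 library other than WT CCR2low replicate 3 and WT CCR2hi replicates 2 and 3 (0.0553 to 0.112). That in CCR2hi (-1.19 ± 0.351, edgeR adjusted p = 0.02) ended without WT CCR2hi replicate 3 (0.0607) or Bhlhe41Cre CCR2hi replicate 2 (0.0646) or 3 (0.0741).

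Of the heart and skeletal muscle isoforms, Cox8b and Cox6a2 were called lower in the same 2 comparisons of groups and Cox7a1 in none. Differences between these isoforms were not tested. Cox8b was at 2.98, 2.01 and 1.53 CPM in WT CCR2low against 1.38, 3.204 and 3.01 in WT CCR2hi, which overlap, but at 0.482, 0.545 and 0.470 in Bhlhe41Cre CCR2low and 1.63, 2.10 and 2.99 in Bhlhe41Cre CCR2hi. Cox8b was called lower in Bhlhe41Cre CCR2low than in Bhlhe41Cre CCR2hi (-2.15 ± 0.419, edgeR adjusted p = 0.000676) and than in WT CCR2low (-2.11 ± 0.42, 0.00162). Cox6a2 had the same 2 calls, at -1.49 ± 0.395 (edgeR adjusted p = 0.00592) and -1.69 ± 0.394 (0.00407), with 0.910, 1.15 and 1.82 CPM in Bhlhe41Cre CCR2low. Cox7a1 was called in none of the 5 comparisons, with 2.195 to 5.202 CPM over the 12 libraries; 0 of these passed an unadjusted p of 0.05 in edgeR, and 0 were called by DESeq2, limma-voom or limma on TPM.

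Markers of muscle and vessel wall were counted in the same comparisons as these isoforms. Over all genes, 30.0% were called lower and 29.8% higher between the WT gates, and 29.1% and 24.9% between the Bhlhe41Cre gates. Between genotypes these shares were 26.7% and 16.4% in CCR2low, and 15.9% and 16.2% in CCR2hi. Cardiomyocyte markers, 19 genes, took 0.0401 to 0.0447% and 0.0541 to 0.0564% of counts in the CCR2low and CCR2hi cells of WT, and 0.0312 to 0.0373% and 0.0549 to 0.0597% in those of Bhlhe41Cre. Most of that sum was Atp2a2, a calcium pump gene at 240 CPM in WT CCR2low and 321 in Bhlhe41Cre CCR2low; without it, left out after its values were seen, the other genes took 0.0153 to 0.0246% and 0.0209 to 0.0292% in WT, and 0.00382 to 0.00475% and 0.0251 to 0.0314% in Bhlhe41Cre. Of the 19 markers, 18 were called lower and 0 higher between the Bhlhe41Cre gates, 16 lower and 1 higher between genotypes in CCR2low, 3 lower and 2 higher between the WT gates, and 0 lower and 1 higher between genotypes in CCR2hi; Ryr2 and Nppb had a count of 0 in at least 1 Bhlhe41Cre CCR2low library. Mural (pericyte and smooth muscle) markers, 10 genes with none at 0, took 0.0498 to 0.0547%, 0.177 to 0.197%, 0.0116 to 0.0224% and 0.166 to 0.177% in the same order, and 9, 10, 10 and 3 were called lower in the gates of WT, the gates of Bhlhe41Cre, and the genotypes within CCR2low and within CCR2hi. Ckmt2, the creatine kinase of muscle mitochondria, fell by 3.28 between the Bhlhe41Cre gates and by 3.10 between genotypes in CCR2low on the log2 scale. The part of these cells' RNA in the isoform values was not tested.

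**Figure D4:**
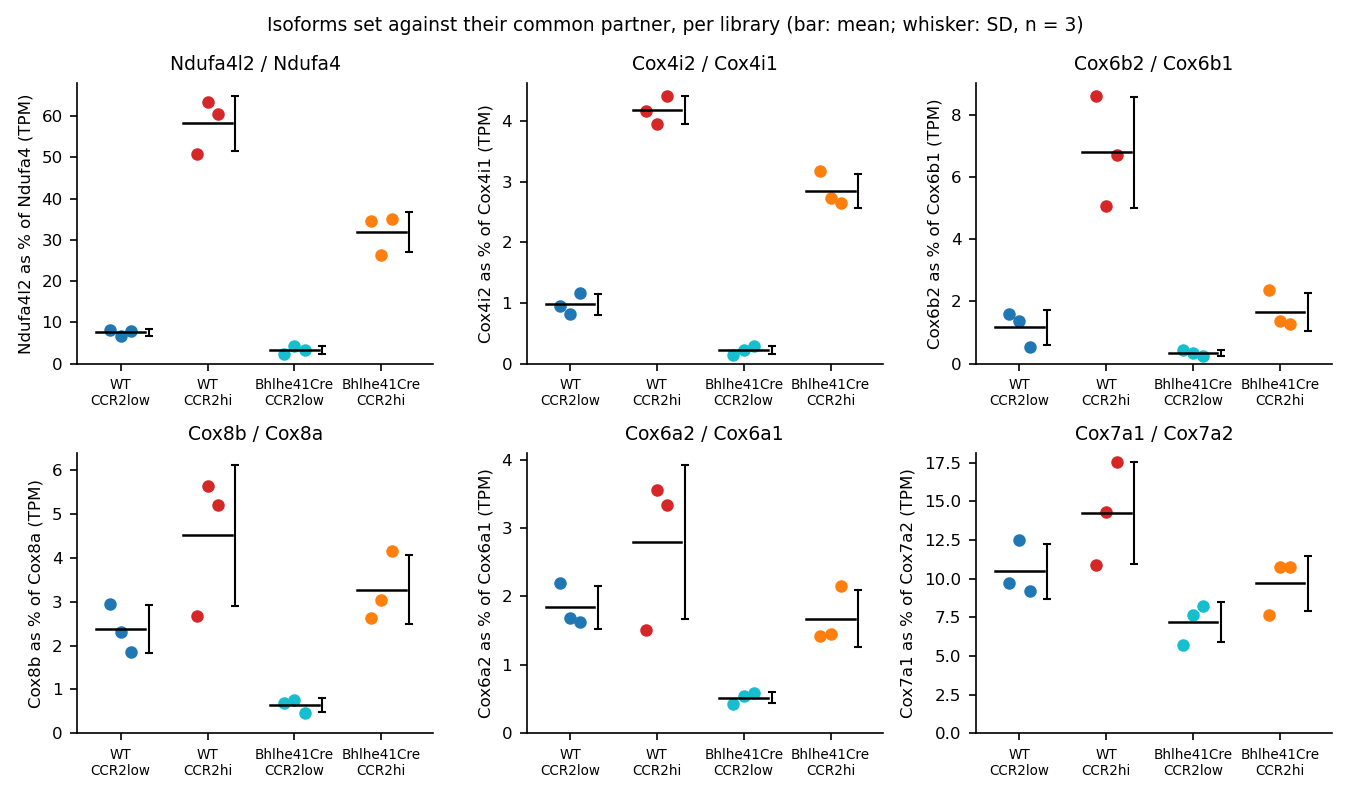
TPM of 6 restricted isoforms as a percentage of the TPM of their common partner, by library; bars are group means and whiskers SD (n = 3). Ndufa4l2, Cox4i2 and Cox6b2 are highest in WT CCR2hi and lowest in Bhlhe41Cre CCR2low, where Cox8b and Cox6a2 also sit below every other group, and Cox7a1 overlaps between WT gates.

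The promoters of the nuclear members were examined because these genes lie apart in the genome and 53 of 82 were called higher between the WT gates. That count was 20 with the length trend removed, where 4943 of 14964 genes were called higher. Of the 88 cytosolic ribosome genes, which are also short, 29 were called higher there (33.0%, beside 29.8% of all genes) and 1 lower. Nuclear respiratory factor 1 (NRF1), ETS factors such as GABP, and YY1 are known regulators of respiratory chain genes. RefSeq windows of 250 bases before to 50 after the start, on GRCm38.p6, were matched by symbol for 66 of the 82 nuclear members. The NRF1 motif GCGCANGCG was in 20 of the 66 (30.3%, against 7.03% of 27025 genes with a window), the ETS motif CCGGAAG in 16 (24.2% against 9.93%) and the YY1 motif AAGATGGCG in 7 (10.6% against 1.64%), on either strand and with exact letters. The windows of 3 genes, all on the minus strand, are printed 5′ to 3′ along the gene with the motifs in capitals. Sdhd (chr9:50603800-50604099) has an NRF1 match and, on the opposite strand, an ETS match. Cox6b1 (chr7:30626065-30626364) has an ETS match on the opposite strand, and Ndufs6 (chr13:73328433-73328732), an N module subunit whose WT gates overlapped and which was not called between them (edgeR adjusted p = 0.118), has an NRF1 match on the opposite strand and a YY1 match.
Sdhd: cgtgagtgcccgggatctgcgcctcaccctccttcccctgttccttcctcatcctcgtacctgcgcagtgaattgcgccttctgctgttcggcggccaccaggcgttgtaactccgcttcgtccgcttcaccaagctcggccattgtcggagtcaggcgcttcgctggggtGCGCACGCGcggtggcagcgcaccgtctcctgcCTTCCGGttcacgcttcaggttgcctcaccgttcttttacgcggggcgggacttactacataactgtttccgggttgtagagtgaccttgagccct
Cox6b1: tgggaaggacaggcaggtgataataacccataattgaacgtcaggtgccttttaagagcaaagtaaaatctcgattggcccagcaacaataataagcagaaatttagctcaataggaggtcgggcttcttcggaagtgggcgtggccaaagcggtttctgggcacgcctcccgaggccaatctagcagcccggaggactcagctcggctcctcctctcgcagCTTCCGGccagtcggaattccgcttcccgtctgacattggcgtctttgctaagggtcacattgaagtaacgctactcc
Ndufs6: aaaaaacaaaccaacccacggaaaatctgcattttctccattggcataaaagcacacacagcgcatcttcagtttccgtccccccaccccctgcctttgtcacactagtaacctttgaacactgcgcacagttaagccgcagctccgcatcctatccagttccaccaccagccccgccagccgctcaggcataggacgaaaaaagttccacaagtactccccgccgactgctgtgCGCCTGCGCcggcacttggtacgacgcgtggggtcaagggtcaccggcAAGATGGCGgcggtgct
Of the 35 members with at least 1 of these motifs 24 were called higher in CCR2low of WT, and of the 31 with none of them 20, so the calls did not separate by the letters in this window. In Bhlhe41Cre against WT within CCR2hi the higher calls were 13 of 35 and 11 of 31. These are matches of letters, not sites of binding.

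Several lists of genes that serve the chain without being subunits were counted beside the 29.8% of all genes called higher and 30.0% called lower between the WT gates. Of 52 assembly factors 20 were called higher (38.5%) and 3 lower in CCR2low, led by the complex IV factors Coa5 (1.21 ± 0.114) and Coa4 (2.07 ± 0.245). Of 78 mitochondrial ribosome genes, whose products translate the mitochondrial mRNAs, 41 were higher (52.6%) and 2 lower, and of 18 tricarboxylic acid cycle genes 12 were higher (66.7%) and 1 lower, such as Idh3b (0.87 ± 0.106). Of 20 genes of electron carriers and coenzyme Q synthesis 6 were higher, a share of 30.0% that is at the background. Of 9 tested carriers and channels of the inner and outer membrane 6 were higher and 1 lower: the uncoupling protein family member Ucp2 was at 1377 ± 59.9 CPM in WT CCR2low against 286 ± 84.4 in WT CCR2hi (2.27 ± 0.26, edgeR adjusted p = 5.91e-06), and Atpif1, the inhibitor of ATP synthase, rose by 1.22 ± 0.176. Between the Bhlhe41Cre gates the same lists gave 10 higher and 4 lower, 13 and 3, 7 and 1, 3 and 0, and 5 and 2, beside 24.9% and 29.1% of all genes.

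Between genotypes in CCR2low, 15 of 52 assembly factors were called lower in Bhlhe41Cre, a share of 28.8% that is near the 26.7% of all genes, and 2 higher. The lower ones included Surf1 (-0.75 ± 0.137) of complex IV, Timmdc1 (-0.77 ± 0.139) of complex I and Atpaf1 (-1.08 ± 0.197) of ATP synthase. The mitochondrial ribosome gave 4 higher and 4 lower. In CCR2hi of Bhlhe41Cre 12 of 78 mitochondrial ribosome genes (15.4%) and 7 of 52 assembly factors (13.5%) were higher, both below the 16.2% of all genes, and 0 and 2 were lower. Cycs, cytochrome c itself, was at 89.4 ± 10.03 CPM in Bhlhe41Cre CCR2hi and 41.2 ± 9.90 in WT CCR2hi (1.12 ± 0.171, edgeR adjusted p = 0.000371). The ADP/ATP carrier Slc25a5 was at 351 ± 21.1 against 173 ± 27.7 CPM there (1.02 ± 0.141, edgeR adjusted p = 0.000174).

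Of 30 genes that copy and express mitochondrial DNA 8 were called higher and 2 lower between the WT gates, 4 and 2 between the Bhlhe41Cre gates, and between genotypes 4 and 3 in CCR2low and 4 and 1 in CCR2hi. The shares called higher, 26.7, 13.3, 13.3 and 13.3%, were each below that of all genes. Tfam, which packages and transcribes mitochondrial DNA, was at 11.9 ± 1.502 against 14.0 ± 1.34 CPM in the CCR2low and CCR2hi cells of WT and 10.4 ± 2.04 against 16.5 ± 0.615 in those of Bhlhe41Cre, and was called only between the Bhlhe41Cre gates (-0.67 ± 0.163, edgeR adjusted p = 0.00351). Trmt10c, part of the mitochondrial RNase P that cuts the precursor RNA, rose in Bhlhe41Cre within CCR2low (1.61 ± 0.23, edgeR adjusted p = 0.000198) and within CCR2hi (0.98 ± 0.221, 0.0047). Of 11 tested regulators 2 were called higher and 5 lower between the WT gates (18.2 and 45.5%, beside 29.8 and 30.0% of all genes). The orphan receptor Esrra was higher in CCR2low of WT (1.11 ± 0.167) and of Bhlhe41Cre (0.62 ± 0.166), and Myc was lower (-1.56 ± 0.189 and -1.42 ± 0.189). The GABP genes Gabpa (-0.60, edgeR adjusted p = 0.0141) and Gabpb1 (-0.54, 0.0229) were lower in CCR2low of WT. Nrf1 and Yy1, both at 0.29, were not called there (edgeR adjusted p = 0.0518 and 0.069). Hif1a, the low-oxygen factor, was at 76.0 ± 7.76 CPM in CCR2low against 162 ± 20.4 in CCR2hi of WT, and at 244 ± 63.0 and 196 ± 41.5 in the same gates of Bhlhe41Cre, and its interaction was called (1.41 ± 0.286, edgeR adjusted p = 0.00872).

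Other scalings shift all genes of a library alike, and a fold minimum leaves fold changes as they are. The distance between nuclear and mitochondrial members could hardly move under these, so its narrow range there is no test of it. Removing length and GC trends could move it, and left nuclear and mitochondrial medians of 0.03 and -0.74 between the WT gates. Median log2 fold changes of the nuclear minus the mitochondrial members were 1.34 between the WT gates, 0.72 between the Bhlhe41Cre gates, 0.95 between genotypes in CCR2low and 1.68 in CCR2hi. Over the alternatives run for each comparison (15, 15, 14 and 14) these ranged from 0.77 to 1.41, 0.68 to 1.02, 0.90 to 1.93 and 1.55 to 1.8, and over the 12 left-out libraries from 1.18 to 1.5, 0.61 to 0.82, 0.83 to 1.08 and 1.5 to 1.89. The mitochondrial median was below 0 in each of these settings for the 4 comparisons. The nuclear median was above 0 in 14 of 15, 11 of 15, 14 of 14 and 11 of 14 alternatives. For the interaction the distance was -0.67 and ran from -0.74 to 0.10 over 14 alternatives, so its sign did not hold in all of them. Scaled to the 17 macrophage identity genes, which put the median of all genes at -3.18 between the WT gates and at -1.98 between the Bhlhe41Cre gates, all 82 nuclear members were called lower in CCR2low in both, while the nuclear median stayed 0.46 and 0.18 above that of all genes. Of all 14964 genes, 14192 and 13523 were called lower between those gates.

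**Figure D5:**
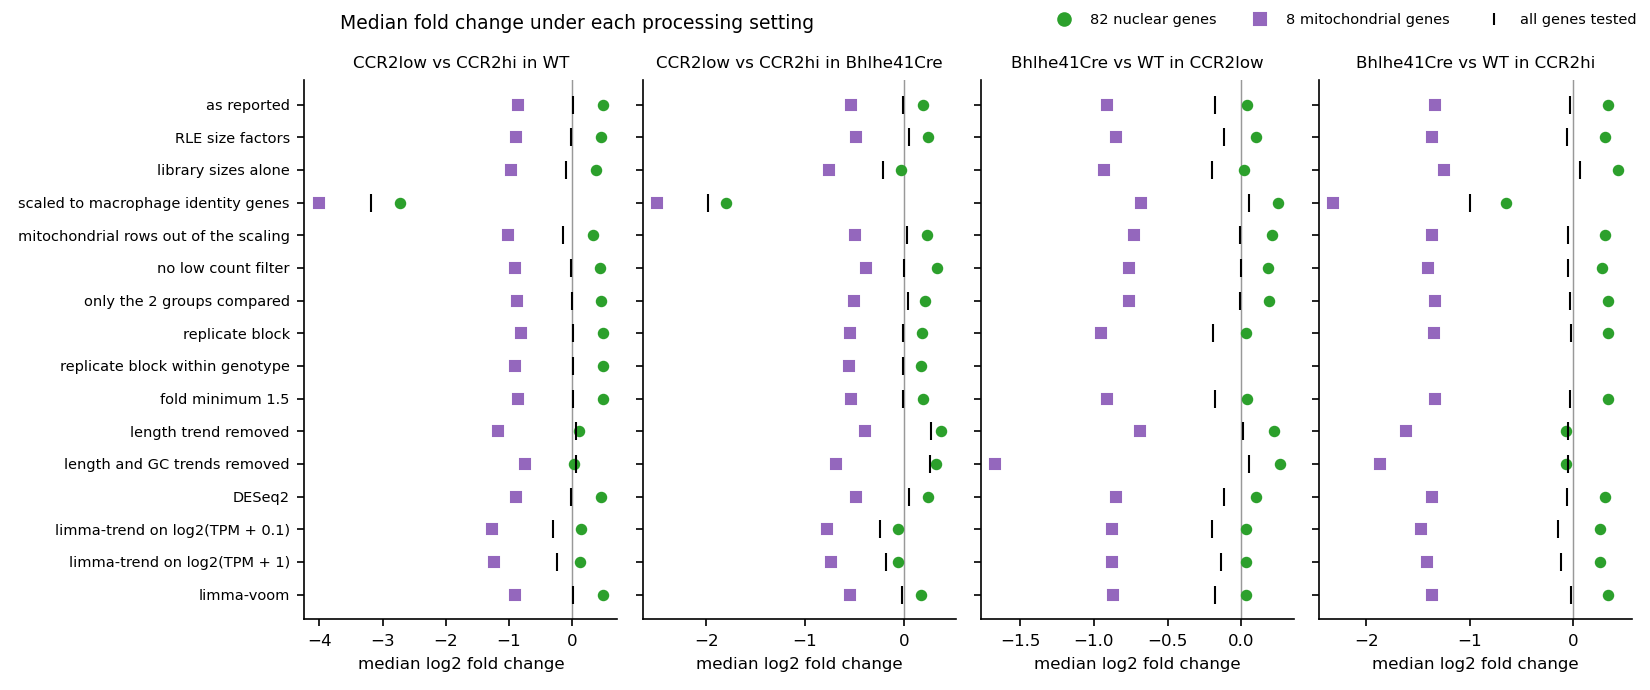
Median log2 fold change of the 82 nuclear members (circles), the 8 mitochondrial members (squares) and all genes tested (bars) under each processing setting, in the 4 comparisons of 2 groups. The squares lie below 0 and below the circles in each row; the circles fall furthest below 0 with scaling to macrophage identity genes, in 3 panels, and meet the bars with length trends removed in the WT gates and in CCR2hi.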

How the data were processed

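Bulk RNA of 12 libraries in 4 groups of 3 was analysed. Per the submitters' processing notes, CASAVA 1.8, STAR 2.4.0j, RSEM and the build mm10 were used; the sources used here give no annotation, strand setting or RSEM version. The authors deposited a table of RSEM expected counts, all whole numbers, and a table of TPM. In both tables KD heads the columns of the second genotype, which were matched to Bhlhe41Cre by gate and number, with groups taken from sample titles because some other fields of those samples hold values of neighbouring fields. Positions are from GENCODE mouse release 21 on GRCm38, which held 99.82% of the gene identifiers.

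All genes were fitted in R 4.3.3 with edgeR 4.0.16 (TMM, filterByExpr, robust quasi-likelihood, 14964 genes, 8 residual degrees of freedom over all 12 libraries). A call is a two-sided p under 0.05 after Benjamini-Hochberg adjustment over the 14964 genes, with no fold minimum. CPM values use TMM-scaled library sizes, and ± after a log2 fold change is its standard error. Alternatives used DESeq2 1.42.0, limma 3.58.1 (on log2(TPM + 0.1) and log2(TPM + 1), or voom) or mgcv 1.9.3 (length and GC trends), other scalings and filters, a replicate block and left-out libraries. The fit was tested on simulated counts.

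Members and lists were chosen with earlier results of these data known, so no list was tested as a set. Named are the mitochondrial members, the Sdh genes, the isoforms with their partners and, within complexes I, III, IV and V, the 2 called members with the largest change in each direction among those with a mean of at least 5 CPM; others were added after their values were seen, such as Ndufv1, Ndufs6, Uqcrc1, Atp5b and Atp5s. Of each further list at most 3 called genes of smallest p are named per comparison, with Gabpa, Gabpb1, Nrf1 and Yy1 added because their motifs were searched. The Rps6k kinases were removed from the cytosolic ribosome list after its names were seen. Replicate numbers pair the gates of Bhlhe41Cre by the rule used (same-number residual correlations of 0.204, 0.106 and 0.358) and not those of WT (-0.059, 0.025 and -0.05). For unequal numbers in Bhlhe41Cre they ran from -0.314 to 0.188. CCR2low replicate 2 correlated more with CCR2hi replicate 1 (0.188) than with CCR2hi replicate 2 (0.106), so the pairing is uncertain.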

Additional observations from a re-analysis of the deposited data

Results flagged for a closer look

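For 5 nuclear members the difference between gates differed between genotypes by the edgeR interaction term, that is, the CCR2low minus CCR2hi log2 difference in Bhlhe41Cre minus that in WT. The values were -2.09 for Cox4i2, -1.93 for Cox8b, -1.02 for Cox7a2l, -0.76 for Ndufa6 and -0.70 for Uqcrfs1. Cox4i2 differed by -1.31 between the WT gates and by -3.40 between the Bhlhe41Cre gates, and Cox8b by -0.22 and -2.15. Cox7a2l, Ndufa6 and Uqcrfs1 were at 0.89, 0.65 and 0.91 between the WT gates and at -0.12, -0.11 and 0.21 between the Bhlhe41Cre gates. With replicates paired within genotype the Cox8b value was -1.92 and not called (edgeR adjusted p = 0.071). The same interaction was called lower in 15 of 19 cardiomyocyte, 6 of 10 mural, 8 of 12 neutrophil and 7 of 17 macrophage identity markers (medians of -2.09, -1.57, -3.65 and -1.01), beside 7.85% of all genes, and the part of these markers' cells in the 5 values was not tested.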

How the results depend on the processing

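Each alternative changed 1 choice, except that DESeq2 also changes the scaling, limma on TPM changes the unit, scaling, filter and test together, and length and GC trends were removed jointly. The changed counts below are those over 1.5 times from the reported ones, and except for the smaller tests they leave (a fold minimum, fewer genes or fewer libraries) the cause was not tested. The 53 nuclear members called higher between the WT gates became 0 scaled to macrophage identity genes, 34 with mitochondrial genes out of the scaling, 7 with a fold minimum of 1.5, 20 with the length trend removed, 26 with length and GC trends removed and 22 by limma on TPM with either pseudocount, and ran from 24 to 59 with 1 library left out. The 3 nuclear members called lower between the WT gates became 82 scaled to macrophage identity genes, 9 with length and GC trends removed and 5 by limma on TPM with either pseudocount, and stayed at 3 with each library left out. The 6 mitochondrial members called lower between the WT gates became 2 with a fold minimum of 1.5, and ran from 3 to 8 with 1 library left out. All genes called higher and lower between the WT gates numbered 4454 and 4495 as reported, and 120 and 14192 scaled to macrophage identity genes. They numbered 3555 and 5251 with mitochondrial genes out of the scaling, and 2406 and 3103 with the fold minimum. With the length trend removed they were 4943 and 4184, and with length and GC trends removed 5040 and 4253. By limma on log2(TPM + 1) they were 2614 and 5691 of 15613. The 14 nuclear members called higher between the Bhlhe41Cre gates became 4 with library sizes alone, 0 scaled to macrophage identity genes, 29 with no filter on low counts, 0 with a fold minimum of 1.5, 53 with the length trend removed, 50 with length and GC trends removed, 23 by DESeq2 and 5 by limma on TPM with either pseudocount, and ran from 5 to 16 with 1 library left out. The 6 nuclear members called lower between the Bhlhe41Cre gates became 12 with library sizes alone, 82 scaled to macrophage identity genes and 14 by limma on TPM with either pseudocount, and ran from 5 to 9 with 1 library left out. The 3 mitochondrial members called lower between the Bhlhe41Cre gates became 5 with library sizes alone, 8 scaled to macrophage identity genes, 0 with no filter on low counts, 1 with the replicate block, 0 with a fold minimum of 1.5, 1 with the length trend removed and 6 by limma on TPM with either pseudocount, and ran from 0 to 5 with 1 library left out. Between these gates 3733 of all genes were called higher and 4361 lower as reported. Library sizes alone gave 2533 and 5384, and scaling to macrophage identity genes 75 and 13523. No filter gave 4445 and 3778 of 26553, the block 3562 and 4262, and the fold minimum 1706 and 3222. Removing the length trend gave 6142 and 3530, and length and GC trends 6209 and 3601. DESeq2 gave 4210 and 4244, and limma on log2(TPM + 1) 2157 and 4881 of 15613. The 4 nuclear members called higher between genotypes in CCR2low became 10 with RLE size factors, 0 scaled to macrophage identity genes, 17 with mitochondrial genes out of the scaling, 14 with no filter on low counts, 13 with only the 2 groups fitted, 1 with the replicate block, 0 with a fold minimum of 1.5, 23 with the length trend removed, 39 with length and GC trends removed, 11 by DESeq2 and 12 by limma on TPM with either pseudocount, and ran from 0 to 20 with 1 library left out. The 10 nuclear members called lower between genotypes in CCR2low became 4 scaled to macrophage identity genes, 6 with mitochondrial genes out of the scaling, 6 with no filter on low counts, 6 with only the 2 groups fitted and 4 with a fold minimum of 1.5, and ran from 5 to 10 with 1 library left out. The 7 mitochondrial members called lower between genotypes in CCR2low became 1 scaled to macrophage identity genes, 2 with no filter on low counts, 4 with only the 2 groups fitted and 1 with a fold minimum of 1.5, and ran from 1 to 8 with 1 library left out. All genes there gave 2448 higher and 3993 lower calls as reported. RLE gave 2701 and 3538, macrophage scaling 1322 and 1014, and mitochondrial genes out of the scaling 3216 and 2765. No filter gave 2936 and 2666, only 2 groups 2898 and 2544, and the block 2280 and 3819. The fold minimum gave 1002 and 1484, length removal 3577 and 2771, and length and GC removal 3660 and 2439. DESeq2 gave 2856 and 3782, and limma on log2(TPM + 1) 1734 and 3356. The 29 nuclear members called higher between genotypes in CCR2hi became 47 with library sizes alone, 0 scaled to macrophage identity genes, 19 with no filter on low counts, 0 with a fold minimum of 1.5, 6 with the length trend removed and 9 with length and GC trends removed, and ran from 14 to 44 with 1 library left out. The 1 nuclear member called lower between genotypes in CCR2hi became 30 scaled to macrophage identity genes, 2 with only the 2 groups fitted, 0 with a fold minimum of 1.5, 7 with the length trend removed, 12 with length and GC trends removed and 2 by limma on log2(TPM + 1), and ran from 0 to 2 with 1 library left out. The 7 mitochondrial members called lower between genotypes in CCR2hi became 4 with a fold minimum of 1.5, and ran from 7 to 8 with 1 library left out. Within CCR2hi 2424 of all genes were called higher and 2384 lower as reported. Library sizes alone gave 2994 and 1851, macrophage scaling 318 and 9006, and no filter 1860 and 2402. Only 2 groups fitted gave 2353 and 2593, and the fold minimum 721 and 608. Length removal gave 2246 and 2430, length and GC removal 2412 and 2586, and limma on log2(TPM + 1) 1666 and 3117. The 0 nuclear members called higher for the interaction became 10 scaled to macrophage identity genes, 7 with the length trend removed and 17 with length and GC trends removed, and stayed at 0 with each library left out. The 5 nuclear members called lower for the interaction became 20 with library sizes alone, 0 scaled to macrophage identity genes, 2 with mitochondrial genes out of the scaling, 3 with no filter on low counts, 1 with a fold minimum of 1.5, 1 with the length trend removed and 1 with length and GC trends removed, and ran from 2 to 10 with 1 library left out. The 0 mitochondrial members called higher for the interaction became 7 scaled to macrophage identity genes, 1 with mitochondrial genes out of the scaling, 1 with no filter on low counts, 2 with the length trend removed, 1 by DESeq2 and 1 by limma on TPM with either pseudocount, and ran from 0 to 1 with 1 library left out. Over all genes this term gave 710 higher and 1174 lower calls as reported. Library sizes alone gave 447 and 1844, macrophage scaling 4901 and 123, and mitochondrial genes out of the scaling 1155 and 708. No filter gave 1150 and 691, and the fold minimum 132 and 346. Length removal gave 1186 and 762, and length and GC removal 1178 and 710. DESeq2 gave 1226 and 1349, and limma on log2(TPM + 1) 365 and 716.

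Of the 127 gene values, 121 kept direction and call with RLE size factors, 120 with DESeq2 and 121 with limma-voom. Scaling to macrophage identity genes put the median of all genes at -3.18, -1.98, 0.05, -1.0 and 1.03 in the 5 comparisons, in the order above, and kept 45 of the 127. Scaled to macrophage identity genes, log2 fold changes of opposite sign were as follows. Between the WT gates, Sdha -2.52, Sdhb -2.34, Sdhc -2.43, Sdhd -2.18, Cox4i1 -2.40, Cox6a1 -2.71, Cox6b1 -2.29, Cox7a1 -3.02, Cox7a2 -2.67, Cox7a2l -2.23, Cox8a -2.46, Ndufa4 -2.93, Ndufb8 -2.19, Ndufs8 -2.37, Uqcrfs1 -2.27, Uqcr11 -2.53, Cox5a -2.07, Atp5g2 -2.44 and Atp5c1 -2.54. Between the Bhlhe41Cre gates, Sdha -1.39, Sdhb -1.58, Sdhc -1.49, Sdhd -1.37, Cox4i1 -1.76, Cox6a1 -1.81, Cox6b1 -1.55, Cox7a2 -1.87, Cox8a -1.70, Ndufa1 -1.41, Ndufb8 -1.51, Cox5a -1.22, Atp5f1 -1.53 and Atp5a1 -1.66. Between genotypes in CCR2hi, Sdha -0.96, Sdhb -0.72, Sdhd -0.56, Cox4i1 -0.44, Cox4i2 -0.96, Cox6b1 -0.16, Cox7a2 -0.11, Cox7a2l -0.47, Ndufa4 -0.58, Ndufs8 -0.28, Ndufb8 -0.35, Uqcrfs1 -0.28, Uqcr10 -0.39, Atp5l -0.22 and Atp5a1 -0.38. For the interaction, Cox7a2l 0.13, Ndufa6 0.39 and Uqcrfs1 0.51. With length and GC trends removed, log2 fold changes of opposite sign were as follows. Between genotypes in CCR2low, Cox4i1 0.34, Cox8a 0.46, Atp5l -0.22 and Atp5f1 -0.04. Between genotypes in CCR2hi, Ndufa4 -0.30 and Atp5l -0.05. For the interaction, Ndufa6 0.00. With the length trend removed, log2 fold changes of opposite sign were as follows. Between genotypes in CCR2hi, Ndufa4 -0.07.

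With the replicate number as a block 116 of 127 gene values kept their call, 11 lost it and 0 changed sign. The block kept within genotype kept 64 of 67 and gave 16 nuclear members higher, 6 lower and 2 mitochondrial members lower between the Bhlhe41Cre gates. By the rule used the pairing, itself uncertain, applies only to those gates, which are also part of the interaction. For the interaction the call of Cox8b was lost (edgeR adjusted p = 0.0528 under the block and 0.071 within genotype) and no other call of a gene named by rule. A call lost under the block in the other comparisons is not a weaker effect. Between those gates it ended the calls of mt-Co3, mt-Nd4, Cox6b1 and Atp5a1 and no other call of a gene named by rule, and no count besides that of the mitochondrial members moved by over 1.5 times under the block. Depth limits mt-Co3, which has 204 counts over the 12 libraries, and the isoforms Cox8b, Cox6b2 and Cox7a1, with 437, 514 and 873.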

Other observations

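The 2 mitochondrial ribosomal RNAs are not members and were not used above. The ratio of mt-Rnr1 to mt-Rnr2 counts was 0.632, 0.555 and 0.628 in WT CCR2low against 0.536, 0.499 and 0.481 in WT CCR2hi. In Bhlhe41Cre it was 1.51, 1.35 and 1.13 in CCR2low and 1.19, 1.06 and 0.884 in CCR2hi, so all 6 Bhlhe41Cre libraries were above all 6 WT libraries. Both are known to be cut from the same precursor, with a transfer RNA between them. Together they took 0.766% of counts in WT CCR2hi replicate 2 and 0.119 to 0.285% in the other 11 libraries. The sources used here do not say whether or how ribosomal RNA was removed.

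Of the genes left out for low counts, mt-Nd3 had 12, 16 and 7 counts in WT CCR2low, 15, 14 and 14 in WT CCR2hi, 2, 2 and 1 in Bhlhe41Cre CCR2low and 1, 1 and 2 in Bhlhe41Cre CCR2hi. Summed Y-linked counts (Ddx3y, Kdm5d, Uty and Eif2s3y) were 105 and 182 in replicate 3 of Bhlhe41Cre CCR2low and CCR2hi and 668 to 1741 in the other 10 libraries. Leaving out either of these replicate 3 libraries moved several counts of calls given above, and the part of this difference in them was not tested.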
